A study of Mus musculus with 38 samples.

Results

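The whole testis transcriptome of B6-ChrXTMSM males was compared with that of B6 males at 5 days postpartum (dpp). The comparison rests on 6 of the 38 arrays of the series, 3 of B6-ChrXTMSM and 3 of B6 testes, chosen by strain and age in their labels, and each array was hybridized with testis RNA of 1 male. B6 is the laboratory strain C57BL/6J, and MSM is an inbred strain derived from the Japanese wild mouse Mus musculus molossinus. B6-ChrXTMSM males carry the distal part of the MSM X chromosome on a B6 background, while the proximal part of their X chromosome and their autosomes are of B6 origin, and B6 males carry no MSM segment. B6-ChrXTMSM is 1 strain that served as its own source for all 3 arrays, so its males share any other difference that arose while the strain was bred. Testes of the same age from MSM, from B6-ChrXMSM, which has the whole X chromosome of MSM, from XS39-tel, a congenic strain with a more distal MSM segment of the X chromosome, and from F1 males of B6-ChrXTMSM females and B6-Chr1MSM males were used for levels beside the main comparison, with 3 arrays each. The study asked which genes change their expression in these testes before meiosis begins.

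At this age the seminiferous tubules of the mouse hold Sertoli cells and spermatogonia, the mitotic stages of the male germ line, and meiotic cells have not yet formed. A male has a single X chromosome, so a gene on the transferred segment is present only as the MSM allele, and its level reflects that allele together with the B6 proteins that act on it. Genes on the rest of the genome are of B6 origin in both strains by design.

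The values were log2 signals on Affymetrix mouse arrays, each for a probe set, a group of short probes that target 1 transcript. MSM sequence can differ from the probes, which can lower the signal without any change in transcript level. Probe sets that the study listed as polymorphic between B6 and MSM were therefore left out on the distal X chromosome, although other probe sets may still hold such differences. Values of listed probe sets, where given, come from fits that kept them. Probe sets entered the test if either group averaged above a signal of 10 on the linear scale, a log2 signal of 3.32, which left 17015 probe sets of 10122 genes. A probe set was called higher or lower when it passed 2 limits, a Benjamini-Hochberg adjusted p of 0.05 in the limma test and a 1.5-fold change. Below, a log2 fold change is always B6-ChrXTMSM minus B6. Array medians lay between 2.67 and 2.7, pairs of arrays correlated at 0.985 to 0.996 over the kept probe sets, and no 2 arrays were identical. Markers of Sertoli cells and spermatogonia were measured at high levels in both groups: the Sertoli cell gene Clu lay between 11.24 and 11.38 on the log2 scale, and the germ cell genes Ddx4 and Dazl lay between 6.73 and 8.35.

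Most of the transcripts that differed between the strains lay on the transferred segment of the X chromosome. Over the genome 51 probe sets were called, 38 lower and 13 higher in B6-ChrXTMSM testes, which is 0.300% of those kept. On the distal X chromosome 34 of 227 kept probe sets were called (15%). Of these, 25 were lower, for 21 genes, against a background of 0.223% lower over all probe sets, and 9 were higher, for 8 genes, against 0.0764%. On the proximal X chromosome 0 of 298 probe sets were called by limma, and none reached a fold change of 1.5 in either direction. At an unadjusted p under 0.05, 69 proximal probe sets (23.2%) passed, close to the background of 20.3%, whereas 134 distal ones did (59.0%). On the autosomes 17 of 16477 probe sets were called (0.103%), 13 lower for 10 genes and 4 higher for 4 genes. None of the 13 X-linked probe sets without a place on either part was called.

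These counts moved with single arrays. The distal count fell to 14 without B6 replicate 1, to 21 without B6 replicate 2 and to 12 without B6-ChrXTMSM replicate 3. The autosomal count was 6, 8 and 4 without these same arrays, 49 without B6 replicate 3 and 57 without B6-ChrXTMSM replicate 2. The proximal count became 1 without B6 replicate 3. The total ranged from 16 without B6-ChrXTMSM replicate 3 to 92 without B6-ChrXTMSM replicate 2, and it was 20, 29 and 80 without B6 replicates 1, 2 and 3. In every such fit the share of kept probe sets called was higher on the distal X chromosome than on the autosomes. The groups did not overlap in any called probe set, so leaving out an array could not change a direction.

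**Figure D1:**
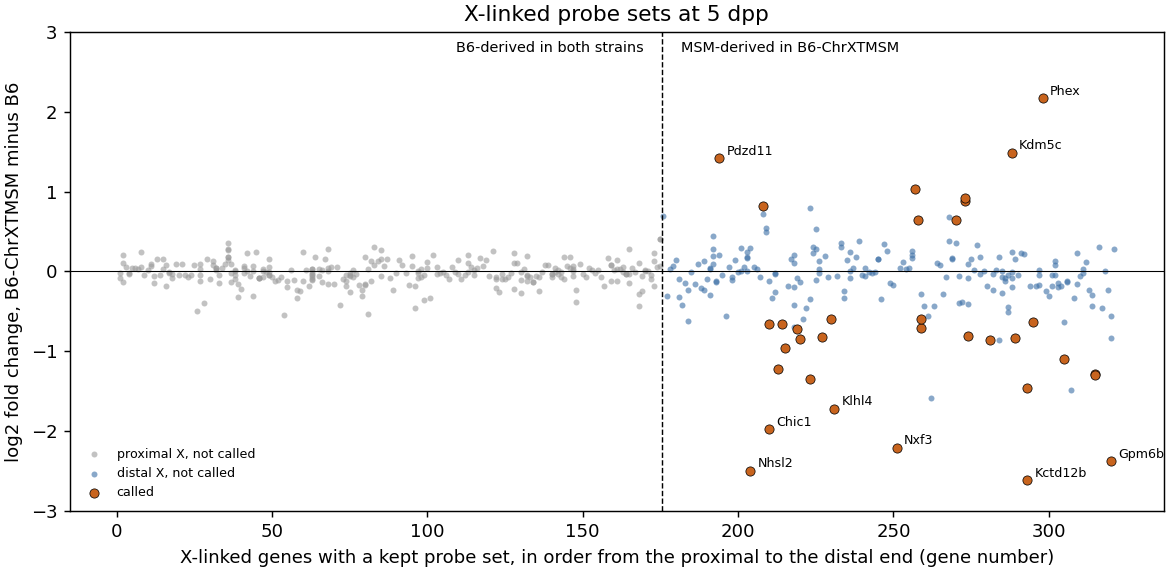
Log2 fold change (B6-ChrXTMSM minus B6, 5 dpp) of each kept X-linked probe set on the vertical axis against the order of its gene from the proximal to the distal end of the X chromosome on the horizontal axis. Each point is 1 probe set, filled orange where called, and the dashed line marks the border of the MSM-derived segment: all 34 called X-linked points lie to its right, where the fold changes scatter with an SD of 0.58 against 0.15 on its left.

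The border appeared in the scatter of the fold changes as well as in the calls. The SD of the log2 fold changes was 0.58 on the distal X chromosome, 0.15 on the proximal X chromosome and 0.16 on the autosomes, so the distal SD was 3.61 times and the proximal SD 0.92 times the autosomal one. The median fold change of the distal probe sets was nevertheless only -0.05, with 5% of them below -1.27 and 5% above 0.65. A fold change of 1.5 was passed by 33 distal probe sets in the lower and 13 in the higher direction, and by 107 and 9 autosomal ones. Each array showed the pattern: the deviations from the mean of the B6 arrays (for a B6 array, of the other B6 arrays) had a distal SD of 0.63, 0.54 and 0.61 in B6-ChrXTMSM replicates 1, 2 and 3, against 0.13, 0.18 and 0.21 in the B6 arrays. On the autosomes the same SDs were 0.21, 0.17 and 0.19 in B6-ChrXTMSM and 0.13, 0.14 and 0.17 in B6. The distal SDs of the strains did not overlap, while the proximal ones, 0.14 to 0.19 in B6-ChrXTMSM and 0.12 to 0.14 in B6, were close to each other. Probe sets with a mean signal below 100 made up 32 of the 34 distal calls (19.4% of 165, with an SD of 0.67). Of the 59 distal probe sets between 100 and 1000, 2 were called (3.39%), and their SD of 0.21 was still above the autosomal 0.11 in that class.

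Sizes of fold changes need care where a level lies below the expression filter, since they are then set by a weak signal. The groups did not overlap in any of the 34 distal or 17 autosomal called probe sets. The call was made on these same arrays and largely fixes this, so it adds no support. Of all probe sets 26.5% had no overlap. The 9 distal calls kept in all 6 fits with 1 array removed belonged to Kctd12b, Nhsl2, Gpm6b, Vegfd, Sh3kbp1, Atp7a, Phex, Kdm5c and Pdzd11. Promoters of 4 of these genes are shown because between them they hold 4 of the 5 motifs searched, all but the E2F-like one, and they place the genes on the segment. Each runs 5′ to 3′ along its gene from 250 bases before to 50 bases after the start (RefSeq, GRCm38.p6), with motif matches in capitals. They are reference (B6) sequence, and the MSM alleles that B6-ChrXTMSM males carry were not read. The Gpm6b promoter lies at chrX:166238693-166238992 (plus strand), that of Atp7a at chrX:106026974-106027273 (plus strand), that of Vegfd at chrX:164373272-164373571 (plus strand) and that of Pdzd11 at chrX:100625892-100626191 (minus strand).
Gpm6b promoter: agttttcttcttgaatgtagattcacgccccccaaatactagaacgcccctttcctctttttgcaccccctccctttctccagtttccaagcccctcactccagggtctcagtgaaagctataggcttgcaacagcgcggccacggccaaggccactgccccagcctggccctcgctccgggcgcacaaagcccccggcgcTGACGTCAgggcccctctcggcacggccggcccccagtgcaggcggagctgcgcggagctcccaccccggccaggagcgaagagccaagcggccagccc
Atp7a promoter: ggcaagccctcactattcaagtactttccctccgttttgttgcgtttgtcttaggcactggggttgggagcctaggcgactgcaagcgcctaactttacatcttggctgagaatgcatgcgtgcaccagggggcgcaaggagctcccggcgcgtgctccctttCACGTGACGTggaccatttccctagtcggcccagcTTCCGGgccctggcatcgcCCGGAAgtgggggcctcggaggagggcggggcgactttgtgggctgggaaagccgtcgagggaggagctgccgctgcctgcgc
Vegfd promoter: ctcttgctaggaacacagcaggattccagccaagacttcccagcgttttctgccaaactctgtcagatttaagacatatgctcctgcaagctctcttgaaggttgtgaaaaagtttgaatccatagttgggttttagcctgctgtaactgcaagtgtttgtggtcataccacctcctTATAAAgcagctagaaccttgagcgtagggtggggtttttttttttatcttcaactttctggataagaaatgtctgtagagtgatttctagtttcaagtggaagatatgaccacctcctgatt
Pdzd11 promoter: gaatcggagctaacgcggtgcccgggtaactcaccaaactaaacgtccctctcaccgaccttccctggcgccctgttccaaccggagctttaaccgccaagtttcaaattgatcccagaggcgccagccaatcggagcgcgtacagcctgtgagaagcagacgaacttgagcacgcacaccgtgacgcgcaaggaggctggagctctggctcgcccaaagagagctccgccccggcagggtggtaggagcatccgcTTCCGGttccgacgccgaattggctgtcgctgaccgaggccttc

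The motifs were the E-box CACGTG, the E2F-like GGCGGGA, the ETS core CCGGAA, the TATA box TATAAA and the CRE-like TGACGT, each searched on both strands, and a promoter was found for 25 of the 29 called distal genes. In Gpm6b the capitals are a CRE-like match that reads on both strands, in Atp7a an E-box that overlaps a CRE-like match followed by 2 ETS cores, in Vegfd a TATA box and in Pdzd11 an ETS core. The TATA letters were held by 5 of the 25 promoters (20%), all of genes with lower expression, against 5.88% of 102 other kept distal genes and 15.7% of all 27025 genes of the table. The ETS core stood in 24% of the called, 24.5% of the other distal and 16.7% of all genes. The CRE-like letters stood in 16%, 9.8% and 8.37%, the E-box in 12%, 19.6% and 8.09%, and the E2F-like letters in 12%, 20.6% and 12.7%. The promoter of Phex held none of these letters, and the 4 genes without an entry included Nxf3, Kctd12b and Nhsl2. A match is a description of these letters in the reference.

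The largest decreases on the distal X chromosome were those of Kctd12b, Nhsl2 and Gpm6b. Kctd12b, a member of the family of potassium channel tetramerization domain proteins, had a log2 signal of 4.31, 4.18 and 4.27 in the B6 arrays and of 1.05, 2.15 and 1.71 in the B6-ChrXTMSM arrays. This amounts to a change of -2.62 (standard error, SE, 0.24, adjusted p = 0.00809), and a second probe set fell from 4.71, 4.65 and 4.41 to 3.14, 3.04 and 3.20, by -1.46 (adjusted p = 0.00117). All 3 B6-ChrXTMSM arrays lay below the expression filter by both probe sets. Nhsl2, a paralog of the Nance-Horan syndrome gene, lay at 4.85, 5.01 and 4.92 in B6 and at 2.28, 2.42 and 2.57 in B6-ChrXTMSM (-2.50, SE 0.08, adjusted p = 0.000135). Its other kept probe set differed by 0.30 (adjusted p = 0.119), so the probe sets of Nhsl2 disagree. Gpm6b, which encodes a membrane glycoprotein of the proteolipid family, decreased from 6.30, 6.32 and 6.26 to 3.86, 4.13 and 3.76. The decrease of -2.38 (SE 0.09, adjusted p = 0.000164) was measured with both strains above the filter. The remaining probe sets of Gpm6b gave -0.84 (adjusted p = 0.0743) and -0.56 (adjusted p = 0.016, under the fold minimum), in the same direction.

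Vegfd, Lpar4, Sh3kbp1 and Fgd1, which act in signalling, were also lower by called probe sets. Vegfd, a secreted ligand of vascular endothelial growth factor receptors, measured 5.34, 5.25 and 5.11 in B6 and 4.06, 3.99 and 3.74 in B6-ChrXTMSM by 1 probe set (-1.30, adjusted p = 0.00405), and its second probe set gave -1.29 (adjusted p = 0.0064). A further Vegfd probe set, listed as polymorphic, was not called (-0.39, adjusted p = 0.176). Lpar4, a receptor of lysophosphatidic acid, decreased from 5.37, 4.94 and 4.92 to 3.66, 3.79 and 3.73 (-1.35, adjusted p = 0.00672). The other probe sets of Lpar4 gave -0.35 and 0.80 (adjusted p = 0.0741 for the latter), so that its direction depends on the probe set. Sh3kbp1, an adaptor in the endocytosis of receptors, went from 3.51, 3.28 and 3.42 to 2.46, 2.29 and 2.19 (-1.10, adjusted p = 0.00481), and its other probe set gave -0.63. Fgd1, an exchange factor for the small GTPase Cdc42, was lower by -0.86 (adjusted p = 0.00672).

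Atp7a, Magt1 and Chm, which serve transport, were lower, whereas Pdzd11 and Acsl4 were higher. Atp7a, the copper-transporting ATPase, was 6.04, 5.93 and 6.01 in B6 and 5.06, 5.27 and 5.12 in B6-ChrXTMSM testes (-0.84, SE 0.07, adjusted p = 0.00464), but its other kept probe set differed by only -0.13. Pdzd11, a small protein with a PDZ domain, was in contrast higher: 3.44, 3.37 and 3.49 in B6-ChrXTMSM against 2.20, 1.90 and 1.93 in B6 (1.42, adjusted p = 0.00117). Its other probe sets differed by 0.21 and 0.25, the latter listed as polymorphic. Acsl4, which activates long-chain fatty acids, rose from 5.44, 5.50 and 5.30 to 6.06, 6.04 and 6.07 (0.64, adjusted p = 0.00839), and its other probe set gave 0.36. Magt1, a magnesium transporter, and Chm, a Rab escort protein, decreased by -0.73 (adjusted p = 0.0186) and -0.60 (adjusted p = 0.0201). A second Magt1 probe set gave -0.09, and a second Chm probe set, listed as polymorphic, gave 0.06.

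The largest increase was in Phex, an endopeptidase of phosphate metabolism. Its log2 signals were 2.74, 2.51 and 2.47 in the B6 arrays and 4.63, 4.80 and 4.80 in the B6-ChrXTMSM arrays, an increase of 2.17 (SE 0.09, adjusted p = 0.000164). The B6 level was under the expression filter in each array, so the 4.51-fold increase depends on a weak signal. Kdm5c, an X-linked demethylase of histone H3, rose from 3.68, 3.53 and 3.92 to 5.13, 5.17 and 5.30 by 1 of its 5 kept probe sets (1.49, adjusted p = 0.00207). The other 4 probe sets of Kdm5c lay between -0.20 and 0.24. Slc25a53, a mitochondrial carrier, was higher by 1.03 (3.54, 3.92 and 3.88 against 4.84, 4.74 and 4.85; adjusted p = 0.0107). Chrdl1, an antagonist of bone morphogenetic proteins, was higher by 0.92 (adjusted p = 0.0219) and 0.88 (adjusted p = 0.0159). A further Chrdl1 probe set, listed as polymorphic, gave -0.09. Phka1, a subunit of phosphorylase kinase, gave 0.82 (adjusted p = 0.00809) and, by probe sets that were not called, 0.72 (adjusted p = 0.0804) and 0.20. The Phka1 probe set at 0.20 is listed as polymorphic. Fam199x was higher by 0.65 (adjusted p = 0.0152), and its other probe sets, both listed as polymorphic, gave -0.26 and 0.20. The Fam199x probe set at 0.20 has a position on chromosome 1 in the study, and was counted by its RefSeq gene.

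**Figure D2:**
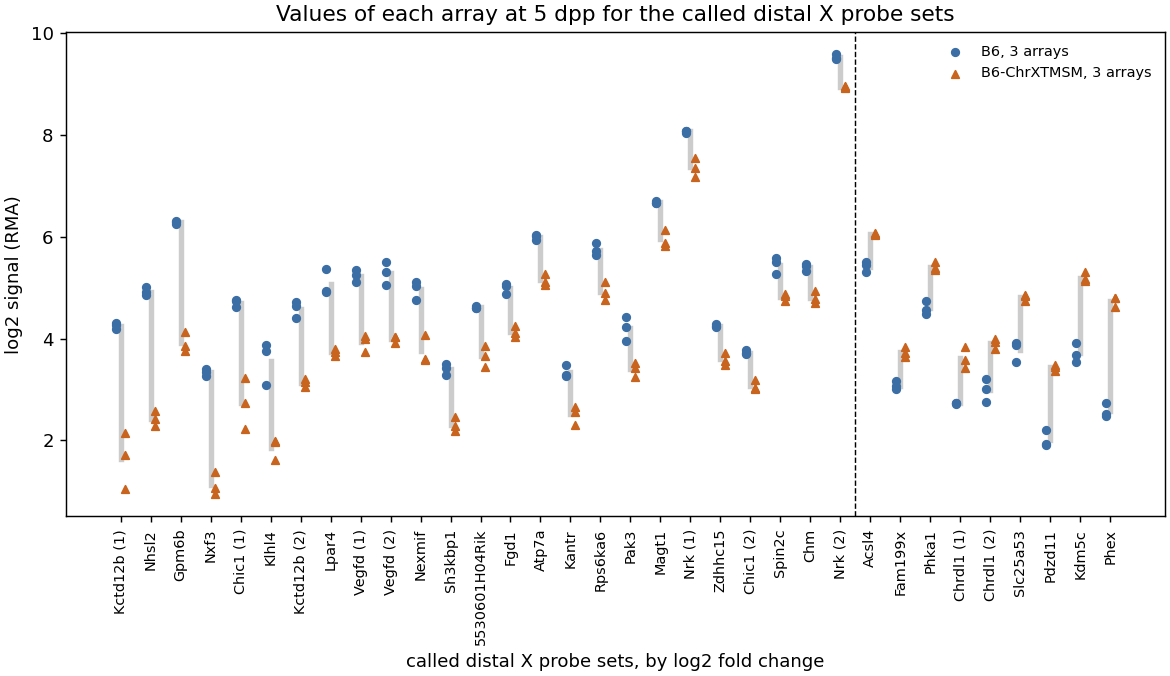
Log2 signal of each array (vertical axis) for the 34 called distal X probe sets (horizontal axis, ordered by log2 fold change), with blue circles for the 3 B6 arrays, orange triangles for the 3 B6-ChrXTMSM arrays and grey bars between the group means. Probe sets left of the dashed line were lower in B6-ChrXTMSM, from Kctd12b at -2.62 to Nrk at -0.59. Those right of it were higher, from Acsl4 at 0.64 to Phex at 2.17. The arrays of the strains do not overlap in any of them, which the call on these same arrays largely fixes.

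The lists of X-linked genes of spermatogenic cells, RNA export factors and the X inactivation centre held calls of Nxf3 and Chic1. Nxf3, a member of the nuclear RNA export factor family that the study describes as expressed in Sertoli cells, measured 3.26, 3.34 and 3.41 in B6 and 1.37, 1.06 and 0.94 in B6-ChrXTMSM testes. Nxf3 thus changed by -2.21 (SE 0.11, adjusted p = 0.000458), at a B6 level close to the expression filter. Nxf2, its neighbour in the same family, lay at 5.66, 5.79 and 5.84 in B6 and at 5.51, 5.60 and 5.12 in B6-ChrXTMSM (-0.35, adjusted p = 0.189) and was not called. Taf7l and Tex11, which function in spermatogenesis, differed by -0.05 and 0.06, and Trap1a by -0.56 (adjusted p = 0.194). Chic1, which lies near the X inactivation centre, decreased from 4.73, 4.63 and 4.76 to 2.23, 3.22 and 2.74 (-1.98, adjusted p = 0.016). A second probe set of Chic1 was lower by -0.65 (adjusted p = 0.00809), while a further one was not called (-0.12, adjusted p = 0.267). In the same neighbourhood Ftx, a noncoding RNA, gave -0.33 (adjusted p = 0.0788) and Rlim, a ubiquitin ligase, gave -0.02. Xist, the RNA that coats the inactive X chromosome of females, was below the expression filter in both groups. The list of nuclear RNA export factors and TFIID paralogs had 11 kept genes with a median of -0.08, of which Nxf3 was called, and Taf9b gave -0.60 (adjusted p = 0.0813). Spin2c, a spindlin family gene, was lower by -0.64 (adjusted p = 0.0328).

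Of the X-linked kinases and other signalling enzymes, 11 of the 18 listed genes were kept, with 1 probe set for each gene. Rps6ka6, a ribosomal S6 kinase, and Nrk, a kinase related to Nik, were lower and Phka1 was higher, and the list had a median of -0.18. Over all genes 0.237% were called on this scale. However, 7 of the 11 kept genes lie on the distal X chromosome, where 15% of probe sets were called. Nrk measured 9.52, 9.59 and 9.5 in B6 and 8.92, 8.96 and 8.94 in B6-ChrXTMSM (-0.59, adjusted p = 0.00464). Another probe set of Nrk gave -0.71 (adjusted p = 0.0277), and its remaining one gave -0.28. Rps6ka6 decreased by -0.83 (adjusted p = 0.0233), and Pak3, a p21-activated kinase, by -0.81 through 1 of its 4 probe sets (adjusted p = 0.0484). Prps2, an enzyme of nucleotide synthesis, changed by -0.55 (adjusted p = 0.0163), which is under the fold minimum. In the Armcx, Bex and Tceal cluster, a run of related X-linked genes, none of the 11 kept genes was called, their median was 0.05, and Zmat1, at 0.35 (adjusted p = 0.0232), was under the fold minimum. The list of X-linked membrane transport genes had 10 kept members with a median of -0.07, and Chm was the 1 called.

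The other distal calls, all lower, were Klhl4 (-1.72, adjusted p = 0.0201), Nexmif (-1.22, adjusted p = 0.022), 5530601H04Rik (-0.96, adjusted p = 0.012), Kantr (-0.84, adjusted p = 0.0201) and Zdhhc15, a palmitoyltransferase (-0.66, adjusted p = 0.0111). For Kantr, a noncoding RNA, the other probe sets gave 0.04, by one listed as polymorphic, and 0.16. The called Kantr probe set has a position on chromosome 2 in the study, and was counted on the distal X chromosome by its RefSeq gene. Large differences without a call were found in Rnf128 (-1.58, adjusted p = 0.0644), Adgrg2 (-1.48, adjusted p = 0.215), Egfl6 (-0.97, adjusted p = 0.105) and Phf8, a histone demethylase (-0.86, adjusted p = 0.0657). Near the fold minimum, Nrk at -0.59 and Acsl4 at 0.64 were just inside, and Dlg3 at -0.56 (adjusted p = 0.00672) and Brwd3 at 0.54 (adjusted p = 0.0141) just outside.

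The calls were spread along the segment. Within the more distal interval that XS39-tel also carries from MSM, 20 of 131 kept probe sets were called (15.3%), 13 lower and 7 higher. In the part of the segment proximal to that interval 14 of 92 were called (15.2%), 12 lower and 2 higher. XS39-tel, B6-ChrXMSM, MSM and F1 testes allowed the levels to be set beside each other, as a description. Inside the shared interval the mean level in XS39-tel was nearer to that of B6-ChrXTMSM than to that of B6 for all 20 called probe sets. Outside it, where XS39-tel is of B6 origin, 12 of 14 were nearer to B6, and the exceptions were a probe set of Chic1 and that of Rps6ka6. Kctd12b averaged 4.26 in B6 and 1.64 in B6-ChrXTMSM, beside 1.60 in XS39-tel, 2.55 in B6-ChrXMSM, 1.87 in F1 and 2.49 in MSM. Nhsl2, outside the interval, averaged 4.93 in B6 and 2.42 in B6-ChrXTMSM, beside 4.84 in XS39-tel, 2.45 in B6-ChrXMSM, 2.47 in F1 and 2.01 in MSM. In F1 testes, which carry the same segment, all 34 were nearer to B6-ChrXTMSM. Nearness was not limited to the segment, since for the 17 autosomal calls F1 was nearer to B6-ChrXTMSM in 16 and XS39-tel in 9.

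**Figure D3:**
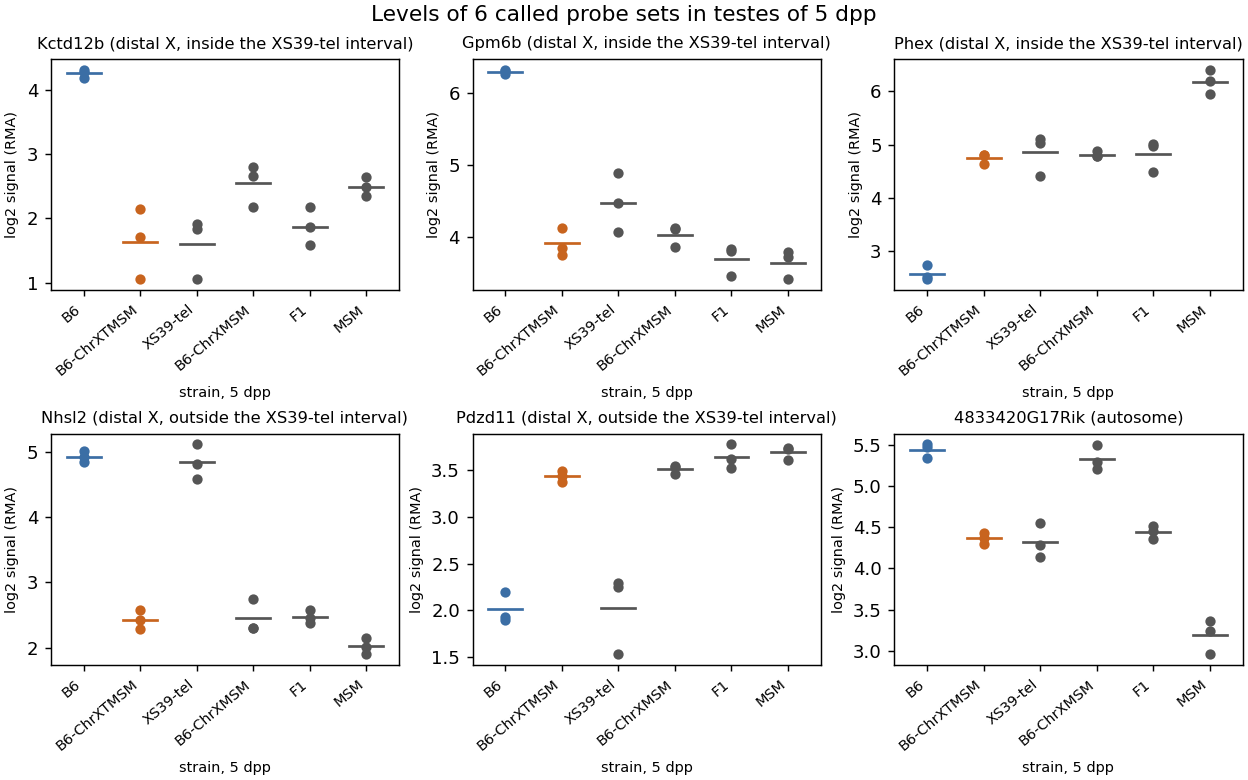
Log2 signal (vertical axes) of 6 called probe sets in testes of 5 dpp from B6, B6-ChrXTMSM, XS39-tel, B6-ChrXMSM, F1 and MSM males (horizontal axes), 1 panel a probe set, with a point for each of the 3 arrays and a line at the mean. XS39-tel sits with B6-ChrXTMSM for Kctd12b, Gpm6b and Phex, inside its MSM interval, and with B6 for Nhsl2 and Pdzd11, outside it, while for the autosomal 4833420G17Rik it averaged 4.33 against 4.37 in B6-ChrXTMSM and 5.44 in B6.

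Probe sets listed as polymorphic were examined apart, since a lower signal on them can be a lower binding of MSM transcripts. When they were kept, 0.381% of all probe sets were called and 0.305% were lower. Of 59 polymorphic probe sets kept on the distal X chromosome, 10 were called (16.9%), all of them lower and none higher. The unlisted distal probe sets in the same fit had 26 lower and 9 higher calls (15.4%). The largest was Cldn34c1, a claudin family gene, with 3.95, 3.82 and 3.57 in B6 and 0.90, 0.70 and 0.84 in B6-ChrXTMSM (-2.97). Bex2, a small X-linked protein, was 7.85, 7.80 and 7.93 in B6 and 6.76, 6.90 and 6.93 in B6-ChrXTMSM (-0.998). Nexmif, with an unlisted probe set at -1.22, gave -1.31 and -1.23 by its listed ones. The Nexmif probe set at -1.31 has a position on chromosome 1 in the study, and was counted on the distal X chromosome by its RefSeq gene. The remaining calls were Pir (-1.32), Acot9 (-1.29), Ap1s2 (-1.24), Nono (-1.03), Gemin8 (-0.71) and Magea5 (-0.60). On the proximal X chromosome, where both strains have B6 sequence, none of the 58 listed probe sets was called. For these genes a difference in sequence and a difference in expression cannot be told apart.

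Few autosomal genes were called, and of these 4833420G17Rik and Sox11 were called by more than 1 probe set. 4833420G17Rik, an uncharacterized gene of chromosome 13, measured 5.51, 5.47 and 5.34 in B6 and 4.30, 4.43 and 4.37 in B6-ChrXTMSM (-1.07, SE 0.06, adjusted p = 0.00117). Its other called probe sets gave -0.97 (adjusted p = 0.00117) and -0.92 (adjusted p = 0.000458), and the remaining one gave -1.02 (adjusted p = 0.0786). By the first of these, 4833420G17Rik averaged 4.33 in XS39-tel, 4.45 in F1, 5.33 in B6-ChrXMSM and 3.19 in MSM. At 7 dpp it averaged 5.47 in B6 and 4.45 in B6-ChrXTMSM. The gene was thus near the B6 level in B6-ChrXMSM testes, which carry the whole MSM X chromosome, and lower in the strains with part of it. Its calls, and that of Procr, the protein C receptor (-0.77, adjusted p = 0.00512), were kept in all 6 fits with 1 array removed.

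The other autosomal genes with a lower called probe set, none of which kept its call in each of these fits, were few. Ccn1, a matricellular protein, gave -1.01 (adjusted p = 0.0428, 1 of 4 probe sets), with another at -1.01 not called. The transcription factor Sox11 gave -0.90 (adjusted p = 0.0107) and -0.65, by 2 of 5. The anchoring protein Akap13 gave -0.87 (adjusted p = 0.0337, 1 of 4), while its other probe sets ran from -0.29 to 0.29. Depdc7 gave -0.75 (adjusted p = 0.0419). Tmpo, a protein of the nuclear lamina, gave -0.72 (adjusted p = 0.0125, 1 of 5), from a B6 level of 3.55, near the expression filter. Its other probe sets, all brighter, ran from -0.03 to 0.06. Sbspon gave -0.68 (adjusted p = 0.0133), the receptor subunit Gabrb2 -0.67 (adjusted p = 0.0217) and the semaphorin receptor Plxna2 -0.60 (adjusted p = 0.0477). Pmaip1, a pro-apoptotic target of p53, was higher, at 5.94, 5.65 and 5.71 against 4.84, 4.66 and 4.97 in B6 (0.94, adjusted p = 0.0156). Ube2d2a, a ubiquitin-conjugating enzyme (0.77, adjusted p = 0.0201, 1 of 5), Osbpl7, an oxysterol-binding protein (0.71, adjusted p = 0.0159, and 0.02 by its other probe set), and Glb1l3 (0.61, adjusted p = 0.00672) were higher too. The called Ube2d2a probe set averaged 3.18 in B6 and 3.95 in B6-ChrXTMSM, near the expression filter. Its other probe sets, all brighter, ran from -0.13 to 0.09.

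Apart from Nxf3 in the X-linked list, no list of testicular cell type markers held a called gene. In bulk testes fewer cells of a type and less RNA per cell cannot be told apart. The lists use 1 probe set for each gene, and over all genes the median was -0.01, with 17 of 10122 called lower and 7 higher. Of 10 kept genes of undifferentiated spermatogonia none was called, with a median of -0.17 and 6 negative values. An unadjusted limma p under 0.05 was found for 5 of these 10 genes, beside 20.3% of all probe sets. The same held for 7 of 16 Sertoli cell genes, so it was not particular to spermatogonia. The spermatogonial values ran from -0.98 for Cdh1, a cadherin (adjusted p = 0.17), to 0.46 for Ret, a growth factor receptor (adjusted p = 0.109). Id4, a marker of spermatogonial stem cells, gave -0.16. Differentiating spermatogonia (10 kept, median -0.10) had no call, although Stra8, a gene induced by retinoic acid, measured 5.62, 5.58 and 5.64 in B6 and 5.17, 5.09 and 4.71 in B6-ChrXTMSM (-0.62, adjusted p = 0.0741). Meiotic genes (12 kept, median -0.14) and genes of germ cells and the piRNA pathway (16 kept, median -0.12) also held none. Of the latter 15 had a negative fold change, among them Dazl at -0.29 and Ddx4 at -0.10, and Ddx4 turned to 0.03 without replicate 3 of both strains. X-linked genes of spermatogenic cells had a median of -0.28 over 11, with Nxf3, a Sertoli cell gene by the study's account, as the only call.

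Single arrays stood apart in these lists. The mean level of the 16 germ cell genes was 5.25, 5.26 and 5.38 in B6, and 5.26, 5.23 and 4.93 in B6-ChrXTMSM, so that replicate 3 was below the others. The same array was lowest in the meiotic list (4.94, 4.82 and 4.56) and in the X-linked spermatogenic list (4.54, 4.47 and 4.12). Without it, the synaptonemal complex gene Sycp3 changed from -0.10 to 0.08 and Taf7l from -0.05 to 0.12. The steroidogenic enzyme Cyp17a1 was highest in it, at 8.58 beside 7.56 and 7.10 in B6-ChrXTMSM and 7.26, 7.53 and 7.49 in B6, and its fold change of 0.32 became -0.09 without it. Its part in the other fold changes is given by the fits without it.

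The lists of somatic cell types held no call. Sertoli cell genes had a median of 0.13 over 16, of which 5 were negative, from -0.83 for the keratin Krt18 (adjusted p = 0.173) to 0.25 for the transcription factor Gata4 (adjusted p = 0.182). The median was 0.17 over 8 Leydig cell genes. Of the other types, peritubular myoid genes had a median of -0.07 over 12, endothelial genes -0.13 over 9 and macrophage genes 0.05 over 10. Cell proliferation genes gave -0.02 over 15, immediate early genes 0.10 over 13 and p53 targets 0.05 over 9, with Pmaip1 as the 1 called. None of the 12 skeletal muscle or 5 erythroid genes on the array was kept, and 3 epididymal genes had a median of -0.40.

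Genes of adipose tissue varied widely between arrays of 1 strain. Of 13 on the array 8 were kept, all 8 had a negative fold change, with a median of -1.45, and none was called. Their mean level was 7.25, 6.65 and 4.37 in B6 and 3.78, 3.76 and 5.84 in B6-ChrXTMSM, so the groups overlapped through replicate 3 of each. Car3, an adipose carbonic anhydrase, was 10.56, 9.72 and 4.68 in B6 and 2.60, 1.79 and 8.78 in B6-ChrXTMSM (-3.93, adjusted p = 0.346). Adipoq, which encodes a fat cell hormone, was 7.13, 6.27 and 1.75 against 1.16, 0.99 and 4.98. Without replicate 3 of both strains, a setting chosen after seeing the data, 19 probe sets were called, 8 on the distal X chromosome and 11 on the autosomes, and of the original calls 8 distal and 3 autosomal ones remained. The part of adipose tissue in the calls was not tested.

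**Figure D4:**
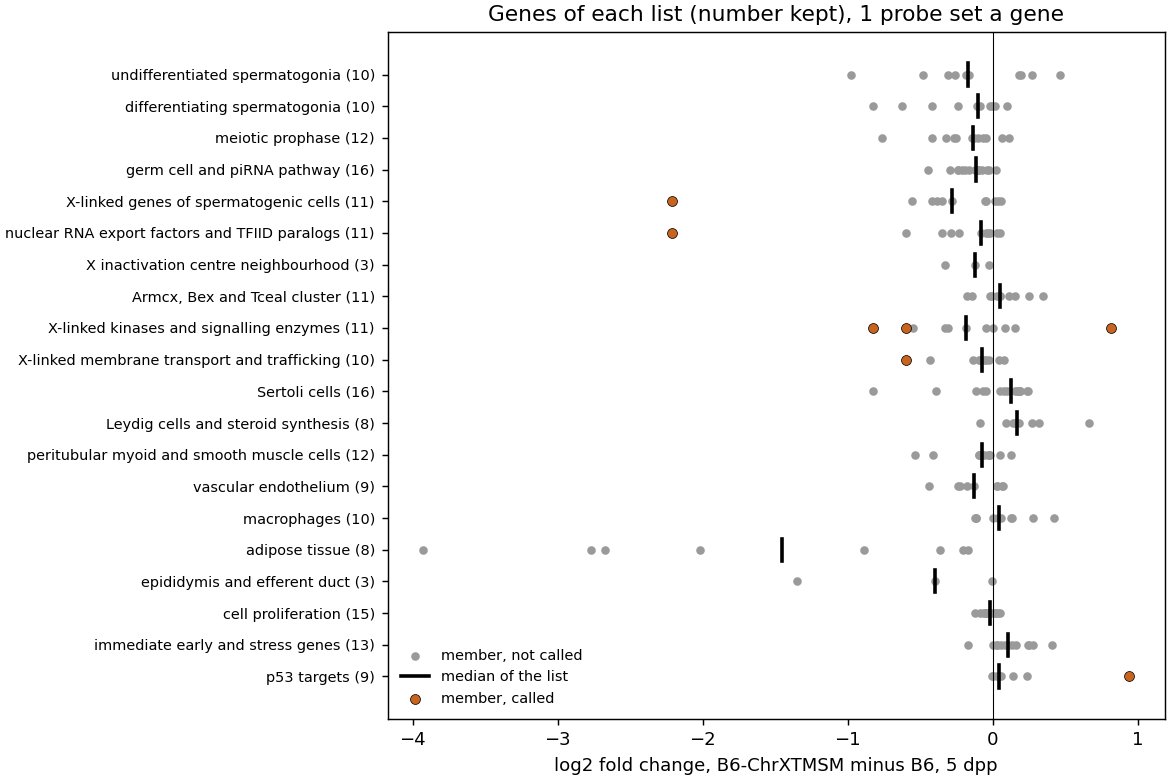
Log2 fold change (B6-ChrXTMSM minus B6, 5 dpp, horizontal axis) of the kept genes of each list (vertical axis, number kept in brackets), with 1 probe set a gene, grey points for members not called, orange points for called members and a black bar at the median. Most lists centre near the all-gene median of -0.01, the adipose genes reach -3.93 without a call, and the called members are Nxf3 (in both lists that hold it), Rps6ka6, Nrk, Phka1, Chm and Pmaip1.

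Compared with MSM itself, B6-ChrXTMSM testes differed over the whole genome, with a smaller share of calls on the shared segment. Between these strains 5106 of 17866 probe sets were called (28.6%). On the autosomes 28.8% were called and on the proximal X chromosome 78 of 254 (30.7%), but on the distal X chromosome 43 of 280 (15.4%), with polymorphic probe sets kept there because both strains carry MSM sequence. On the autosomes and the proximal X chromosome, B6 sequence was compared with MSM sequence, so probe mismatches can add to those shares. The study's list of polymorphic probe sets covers only chromosome 1 and the X chromosome, and listed autosomal probe sets were kept. The distal share is therefore not a like measure, and the part of mismatches was not tested. Of the distal calls 29 were lower and 14 higher in B6-ChrXTMSM. The largest was Wnk3, a kinase of ion transport, at 6.14, 6.23 and 6.00 in B6-ChrXTMSM and 3.58, 3.52 and 3.56 in MSM (2.57, adjusted p = 2.37e-07). This Wnk3 probe set is listed as polymorphic, and B6 lay at 6.15, 6.14 and 6.21 by it, a difference of -0.05 for B6-ChrXTMSM minus B6. Phex, raised over B6, was still below MSM, at 4.74 against 6.18 on average (-1.44, adjusted p = 2.5e-05). Nrk, lowered from B6, lay at the MSM level by its strongest probe set (0.01, adjusted p = 0.884), and so did Slc25a53 (-0.01, adjusted p = 0.899). Of the 5 largest differences, the others were Rnf128 (-1.52), 8030474K03Rik (-1.50) and Tex11 (-1.31).

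Against B6-ChrXMSM, where the distal X chromosome is of MSM origin in both strains, few distal transcripts differed. Over the genome 124 of 16993 probe sets were called (0.730%), 39 lower and 85 higher in B6-ChrXTMSM, of which 33 of 242 lay on the proximal X chromosome (13.6%) and 5 of 273 on the distal part (1.83%). Tex11, needed for meiotic recombination, was 4.66, 4.60 and 4.17 in B6-ChrXTMSM and 1.94, 3.04 and 2.25 in B6-ChrXMSM (2.07, adjusted p = 0.0234). Nxf2 was 5.51, 5.60 and 5.12 against 2.80, 4.13 and 3.61 (1.90, adjusted p = 0.0375). Both genes lie within MSM sequence in both strains and were higher in B6-ChrXTMSM. In the same comparison some autosomal germ cell genes, chosen after their values were seen, were higher too (Sycp3, Tex19.1, Piwil2 and Sohlh1). The part of germ cell content in the differences of Tex11 and Nxf2 was not tested. The others were 8030474K03Rik (1.18, adjusted p = 0.0334), Asb9 (0.95, adjusted p = 0.0147) and Pak3 (-0.70, adjusted p = 0.0488). The total of 124 was 46, 72 and 45 without B6-ChrXTMSM replicates 1, 2 and 3, and 61 and 47 without B6-ChrXMSM replicates 1 and 3. It became 186 without B6-ChrXMSM replicate 2.

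The strain difference was also set against that of 7 dpp, in a fit of both strains at both ages with a strain by age term. This term was called for 907 of 17488 probe sets (5.19%), and 33 of 237 on the distal X chromosome (13.9%), 29 of 311 on the proximal part (9.32%) and 844 on the autosomes (4.99%). Of the 907, 530 were more negative and 377 more positive at the later age. The fitted difference of Nxf3 was -2.21 at 5 dpp and -3.42 at 7 dpp, with B6 at 3.34 and 4.80 and B6-ChrXTMSM at 1.12 and 1.38. That of Phex was 2.17 and 2.77, with B6 at 2.57 and 1.69 and B6-ChrXTMSM at 4.74 and 4.46. In both genes 1 strain lay below the expression filter at both ages, so the sizes of their differences cannot be ranked between the ages. Lpar4 was less reduced at 7 dpp (-1.35 and -0.42), and Pak3 turned from -0.81 to 0.42. The largest age terms were in genes without a call at 5 dpp. Cbln1, a secreted cerebellin, differed by -0.16 at 5 dpp and by 3.27 at 7 dpp, and Meioc, which meiotic prophase requires, by -0.39 and -3.17. At 5 dpp Meioc lay below the expression filter in both strains (0.98 in B6 and 0.59 in B6-ChrXTMSM) and was not tested at that age alone.

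**Figure D5:**
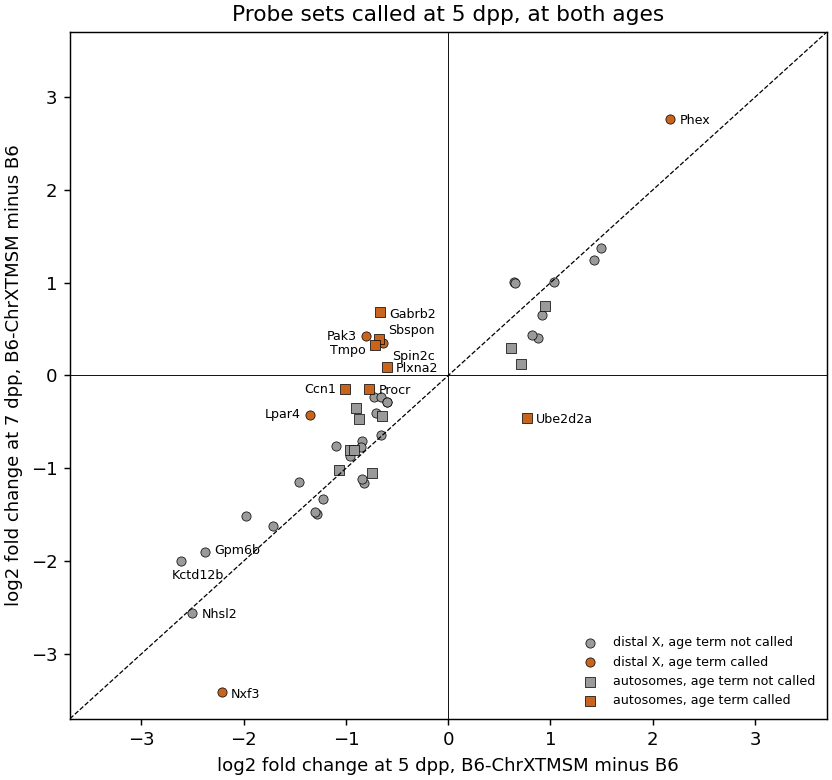
Log2 fold change (B6-ChrXTMSM minus B6) at 7 dpp (vertical axis) against that at 5 dpp (horizontal axis) for the probe sets called at 5 dpp, with circles for the distal X chromosome, squares for autosomes and orange where the strain by age term was called. The dashed line marks equal differences: Nxf3 (-2.21 and -3.42) and Phex (2.17 and 2.77) lie off it with 1 strain below the expression filter at both ages, and Pak3 (-0.81 and 0.42) and Ube2d2a (0.77 and -0.45) changed sign.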

How the data were processed

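Testis RNA, from 1 male an array, was measured on Affymetrix Mouse Genome arrays. The deposited log2 values come from RMA as the authors ran it in GeneSpring GX, a version not given in the sources used here, on perfect-match probes, with background correction and quantile normalization. They were not transformed again. Arrays were grouped by label (3 per group, labelled biological replicates).

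Of 45101 probe sets, 34958 had 1 gene in the platform annotation, 932 had several and 9211 had none, and 34728 were placed on an autosome or the X chromosome and used. The distal X chromosome runs from Pcyt1b to Rab9, placed through genes with mm9 positions in the study and RefSeq gene order. On it 115 of 532 probe sets were listed as polymorphic and left out, except where stated. Probe sets with a group mean above 10 on the linear scale were tested (two-sided) with limma 3.58.1, using its lmFit and eBayes, under R 4.3.3, with Benjamini-Hochberg adjustment over all of them. Each comparison of 2 strains used only those groups. Calls needed an adjusted p below 0.05 and a 1.5-fold change, and the steps were tested on simulated data.

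The comparison, gene lists and rule for named genes were chosen with earlier results of these data known. The rule took all higher distal calls, up to 20 lower genes, up to 15 called genes elsewhere, called or brightest list members, a set of germ cell, X-linked and somatic genes, and the 5 largest differences in the further comparisons; large values without a call, values near the fold minimum and further list members were chosen after their values were seen. Alternatives changed the filters, scaling, polymorphic probe sets, groups fitted, moderation, probe sets per gene, fold minimum and arrays.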

Additional observations from a re-analysis of the deposited data

Results flagged for a closer look

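The strain difference was not the same at 5 and 7 dpp by the strain by age term of limma (difference at 7 dpp minus that at 5 dpp, log2 scale), which was called for 907 probe sets over the genome and for 33 on the distal X chromosome. The largest terms were those of Car3 (8.24, with strain differences of -3.93 at 5 dpp and 4.31 at 7 dpp), Spink8 (3.50, from -1.95 to 1.56), Cbln1 (3.43, from -0.16 to 3.27), Meioc (-2.78, from -0.39 to -3.17) and Lcn2 (2.58, from -1.78 to 0.80). Car3 belongs to the adipose list, whose level differed between arrays of 1 strain, and the part of that tissue was not tested. Meioc lay below the expression filter in both strains at 5 dpp.

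Among the genes called at 5 dpp, the term was 1.23 for Pak3, 0.93 for Lpar4, 0.98 for Spin2c, 0.60 for Phex and -1.20 for Nxf3 on the distal X chromosome. On the autosomes it was 0.63 for Procr, 1.05 for Tmpo, 1.35 for Gabrb2, 0.86 for Ccn1, -1.23 for Ube2d2a, 0.69 for Plxna2 and 1.07 for Sbspon. Genes called at 5 dpp were chosen on the difference at that age, so a smaller difference at 7 dpp is partly fixed by the choice.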

How the results depend on the processing

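Array median scaling and quantile normalization kept 47 and 48 of the 51 calls. None of the 51 called probe sets reversed under any alternative in which it was kept. Leaving out arrays could not reverse them, since their groups did not overlap. The counts moved, and are given here in the order all, distal X, distal lower, distal higher and autosomes (51, 34, 25, 9 and 17). They were 26, 18, 15, 3 and 8 with a signal above 30, 24, 17, 12, 5 and 7 with 1 probe set a gene, 18, 16, 12, 4 and 2 with a fold change of 2, and 19, 8, 6, 2 and 11 without replicate 3 of both strains, the last chosen after seeing the data. Without a fold minimum there were 113 calls, with 17 higher on the distal X chromosome, 2 on the proximal X chromosome and 64 on autosomes. Robust moderation with a trend gave 80 calls, 39 on autosomes, which had 8 calls in 1 fit over all groups of 5 dpp and 10 in 1 fit over all arrays. Leaving out 1 array gave 16 to 92 calls in all, 12 to 35 on the distal X chromosome, 9 to 25 lower and 3 to 10 higher there, 0 to 1 on the proximal X chromosome and 4 to 57 on autosomes. The SD of the distal fold changes was 0.46 with a signal above 30. That of autosomes ranged from 0.15 to 0.19 with 1 array left out and was 0.20 without replicate 3 of both strains. The 124 calls against B6-ChrXMSM became 62 without the signal filter and 45 to 186 with 1 array left out. Reversed values were those of genes that were not called. With 1 array or replicate 3 of both strains left out, Cyp17a1 ranged from -0.0923 to 0.6458, Ddx4 from -0.1902 to 0.0283, Kit from -0.1505 to 0.0171, Sycp3 from -0.1932 to 0.1322, Taf7l from -0.1304 to 0.168 and Tex11 from -0.0345 to 0.2666. The causes were not tested. Array number and dim signal limit the precision: 32 of the 34 distal calls had a mean signal below 100.

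With the replicate number as a block there were 20 calls, 12 on the distal X chromosome (8 lower and 4 higher) and 8 on autosomes, of which 17 were among the 51, and 39 against B6-ChrXMSM. Samples of the same number in B6 and B6-ChrXTMSM deviated apart (correlations of -0.24, -0.16 and -0.20), so the numbers did not pair them.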

Other observations

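Around 4833420G17Rik on chromosome 13, a window of 300 kb on each side, chosen after its values were seen, held 5 genes with 14 kept probe sets. The 3 called ones were all of 4833420G17Rik. Its neighbours gave -0.02 and -0.01 for Nnt, a mitochondrial transhydrogenase, and -0.11 to 0.20 for Paip1, a regulator of translation. Hmgcs1, an enzyme of cholesterol synthesis, gave -0.09 to 0.00, and Tmem267 gave -0.66 (adjusted p = 0.182).

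Of the 86 autosomal calls against B6-ChrXMSM at 5 dpp (0.522% of those kept), 25 were lower and 61 higher in B6-ChrXTMSM testes. From the higher ones 4 genes were chosen after their values were seen. They were Sycp3 of the synaptonemal complex (1.71), Tex19.1 (1.75), Piwil2 of the piRNA pathway (1.53) and the spermatogonial transcription factor Sohlh1 (1.21). Members of a germ cell list were not counted among these calls, so the 4 genes do not describe such a list. Against B6, the same Sycp3 probe set differed by -0.10 and was not called.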
